A study of Homo sapiens with 8 samples.

Results

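The libraries compared here came from HCT116, a human colorectal carcinoma cell line, in which DICER was supplied as the wild-type (WT) protein or with the substitution R1855L. They were chosen by their titles, and they are 4 of the 8 libraries of the series, with 2 labelled R1855L rescue and 2 labelled Wild-Type rescue. The other 4 carry the rescues R821H (2) and R1003Q (2), and entered the fits to estimate the spread and as a second point of comparison. The titles call every group a rescue and state neither what became of the cells' own DICER, nor how the protein was delivered, nor whether a line is 1 clone, so all groups may share a background that is not described. Mature microRNAs (miRNAs) were read by AQ-seq, a small-RNA sequencing method designed to reduce ligation bias. Nothing in the labels says that replicates are separate cultures. The p-values therefore refer to the spread among libraries, which may be technical.

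DICER is the RNase III enzyme that receives a precursor hairpin and cuts both of its arms near the loop. The cut releases a duplex of a strand from the 5' arm (5p) and a strand from the 3' arm (3p). Usually 1 strand is kept by an Argonaute protein and the other is lost, and bases 2 to 8 of the kept strand, the seed, select its targets. The arginine replaced in R1855L lies in the double-stranded RNA binding domain at the C-terminal end of DICER. A level below is a share of 1 library, given as CPM, the reads of an miRNA after all libraries are brought to the same TMM-adjusted total. In bulk RNA a lower share of an miRNA in each cell and fewer cells making it cannot be told apart.

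The mature sequences that the comparison turns on are given first, 5' to 3', from RefSeq (GRCh38.p14), with the seed in capitals. The first sets pair an miRNA that fell in R1855L with an miRNA of the same seed that did not pass the test.
miR-222-3p: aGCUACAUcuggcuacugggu
miR-221-3p: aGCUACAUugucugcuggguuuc
miR-25-3p: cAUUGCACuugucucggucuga
miR-92a-3p: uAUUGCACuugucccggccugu
miR-27b-3p: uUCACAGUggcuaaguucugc
miR-27a-3p: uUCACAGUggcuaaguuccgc
miR-23b-3p: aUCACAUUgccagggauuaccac
miR-23a-3p: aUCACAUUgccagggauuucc
miR-99b-5p: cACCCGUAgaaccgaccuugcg
miR-100-5p: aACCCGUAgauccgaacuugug
miR-429: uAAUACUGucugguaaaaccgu
miR-200b-3p: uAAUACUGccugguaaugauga

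The next set holds the miRNAs with the largest falls at 50 CPM or more, and both strands of the hairpin in which the strand ratio moved most toward 3p.
miR-484: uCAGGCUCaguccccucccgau
miR-331-3p: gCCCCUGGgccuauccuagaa
miR-615-3p: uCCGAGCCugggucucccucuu
miR-3200-3p: cACCUUGCgcuacucaggucug
miR-185-5p: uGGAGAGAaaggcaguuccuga
miR-185-3p: aGGGGCUGgcuuuccucugguc

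Whole hairpins show how the strands are arranged, here with the annotated mature strands in capitals. They were chosen because only the 3p strand was called lower (miR-25, chr7:100093560-100093643, - strand), both strands were (miR-222, chrX:45747015-45747124, - strand), or only the 5p strand was (miR-185, chr22:20033139-20033220, + strand).
miR-25: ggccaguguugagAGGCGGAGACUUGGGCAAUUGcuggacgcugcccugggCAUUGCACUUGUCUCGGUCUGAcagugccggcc
miR-222: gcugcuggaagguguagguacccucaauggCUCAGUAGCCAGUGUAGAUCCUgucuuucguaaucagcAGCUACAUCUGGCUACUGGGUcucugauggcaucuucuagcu
miR-185: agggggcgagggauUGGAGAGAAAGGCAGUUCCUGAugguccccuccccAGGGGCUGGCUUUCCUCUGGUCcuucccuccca

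The libraries held 1137858 and 4269231 reads in WT replicates 1 and 2, and 2241881 and 462805 in R1855L replicates 1 and 2. The deep WT library is replicate 2 and the deep R1855L library is replicate 1, so every pair of values below crosses depth. A count of 0 allows up to 3 reads, or 6.48 CPM of the library total in the shallowest library. The 4 libraries listed 1694 names in all, and 858 names in every one of them.

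Cell markers are given as CPM of the library total. Of 8 tested markers of colorectal epithelium, edgeR called 2 lower in R1855L (miR-141-3p and miR-429) and 0 higher, and the rest were not called. Over all names it called 5.44% lower and 0.32% higher. miR-31-5p held 41400 to 53100 and miR-200b-3p 1270 to 1560, while the untested miR-215-5p had 5 and 5 reads in WT and 4 and 0 in R1855L. Markers of other cells were present as well. The 5 names of stroma and muscle summed to 744 and 633 in WT and 634 and 959 in R1855L, mostly miR-145-5p of smooth muscle and fibroblasts (690 and 604, then 602 and 890). miR-133a-3p had 10 and 12 reads in WT and 23 and 5 in R1855L, and miR-1-3p and miR-206 had at most 2 reads and were at 0 in 3 of the 4 libraries each. The 5 blood names summed to 754 and 559 in WT and 667 and 933 in R1855L, with miR-142-3p of blood cells at 426 and 301, then 257 and 449, and the myeloid miR-223-3p at 3 to 9 reads. The 3 liver and neuron names summed to 705 and 841 in WT and 1183 and 618 in R1855L, led by miR-9-5p, with miR-122-5p of liver at 60.7 to 107 and the neuronal miR-124-3p at no more than 1.67 reads. The R1855L range was not apart from the WT range in any of these 3 sums. Of the 8 tested names on them, edgeR and DESeq2 called 0 between R1855L and WT, and 0 had an unadjusted p under 0.05. The part of such RNA in the results was not tested.

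With group as the only term, more names were called lower than higher in R1855L. Of 625 names tested by edgeR's quasi-likelihood test, 34 were lower (5.44%) and 2 higher (0.32%) at a Benjamini-Hochberg adjusted p under 0.05. The 34 lower names comprised 21 3p strands, 8 5p strands and 5 names without a strand suffix, and fell by 1.04 to 5.11 on the log2 scale, with a median of -2.02. The median over all 625 was 0.126. Together the 34 took 15.1% and 10.8% of reads in WT, 2.65% and 3.84% in R1855L, and 11.2% to 15.4% in the other 4 libraries. Most of that share was miR-222-3p, which held 9.47% and 6.91% of WT reads and 1.55% and 2.17% of R1855L reads. Without it the rest of the set went from 5.63% and 3.88% to 1.1% and 1.67%. The set was chosen by its fall in these libraries, so the shares describe its size and are no further support.

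Both R1855L libraries lay below both WT libraries for 134 of the 625 names (21.4%) and above them for 132 (21.1%), so a position outside the WT range was common in either direction. The groups were apart in all 36 called names, so leaving out a library could hardly change a sign. Where separation is given below for a called name, it describes the values and adds nothing to the call. A term for deep and shallow libraries raised the calls to 104 lower (16.6%) and 73 higher (11.7%). All 36 names remained called with it, and none of their log2 fold changes moved by more than 0.163. WT and R1855L each hold a deep and a shallow library, so the term could hardly move these values. Their stability therefore adds no support. The counts fell to 2 when the model used the 4 libraries alone (miR-484 and miR-331-3p), to 17 without WT replicate 1, to 15 without R1855L replicate 1, and to 19 without either R1003Q library, with no sign changed among the 36.

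**Figure D1:**
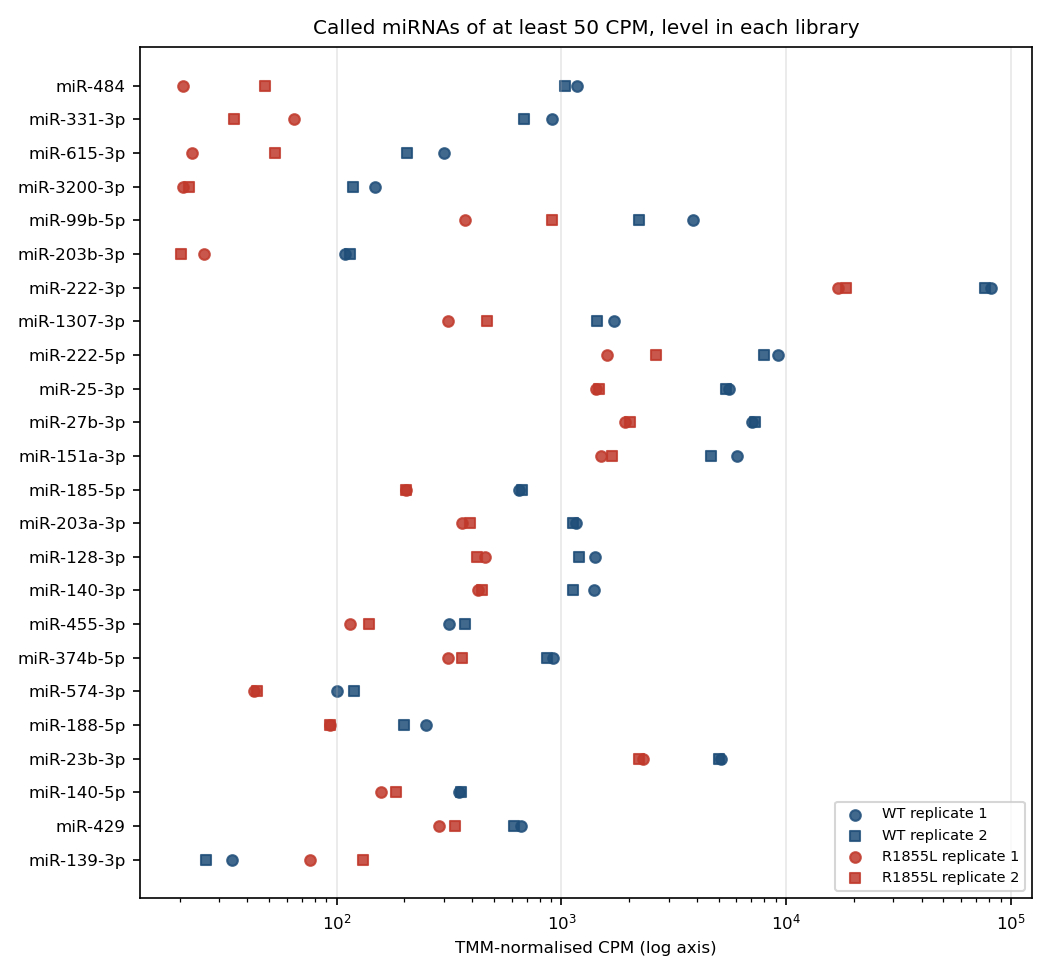
Level of each called miRNA of at least 50 CPM (mean over both groups) in the 4 libraries, as TMM-normalised CPM on a log axis, ordered by log2 fold change. Blue points are WT and red points R1855L, circles replicate 1 and squares replicate 2; in 23 of the 24 rows both red points lie left of both blue points, and in miR-139-3p they lie right.

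Of the 5 lower names without a strand suffix, miR-484 had the largest fall. It forms from the capped 5' end of its transcript without the nuclear enzyme DROSHA, and its hairpin overlaps an exon of NDE1 (chr16:15643294-15643372, + strand). Its level was 1175 and 1039 CPM in WT and 20.7 and 47.8 CPM in R1855L, a fitted 34.5-fold decrease. miR-643, in an intron of ZNF766, had 41 and 108 reads in WT and 7 and 1 in R1855L (-3.27, SE 0.48, edgeR adjusted p = 0.00902). miR-375, an miRNA of endocrine cells that is lowered in several carcinomas, had 85 and 215 reads in WT and 23 and 5 in R1855L (-2.50, SE 0.35, edgeR adjusted p = 0.0083). In each of these 3 the R1855L range lay apart from the WT range, as in every called name. The remaining names of this kind were miR-1303 (-2.10, SE 0.46) and miR-429 (-1.04, SE 0.21).

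Most hairpins with both strands tested had no called strand, and where there was a call it was mostly of 1 strand. Of 180 such hairpins, 16 had only the 3p strand called lower, 4 only the 5p strand lower, 2 both strands lower and 2 only the 3p strand higher, which left 156 with no call. In the group of 16 the partner 5p strand had a median log2 fold change of 0.08, with a range from -3.23 to 0.85, and lay above 0 in 9. Over all 180 hairpins the 5p strands had a median of 0.20 and lay above 0 in 120. The 3p strand was the more abundant of the pair in WT in 12 of the 16, and in 66 of the 180. Called strands chose these groups, so the medians describe them and test nothing.

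**Figure D2:**
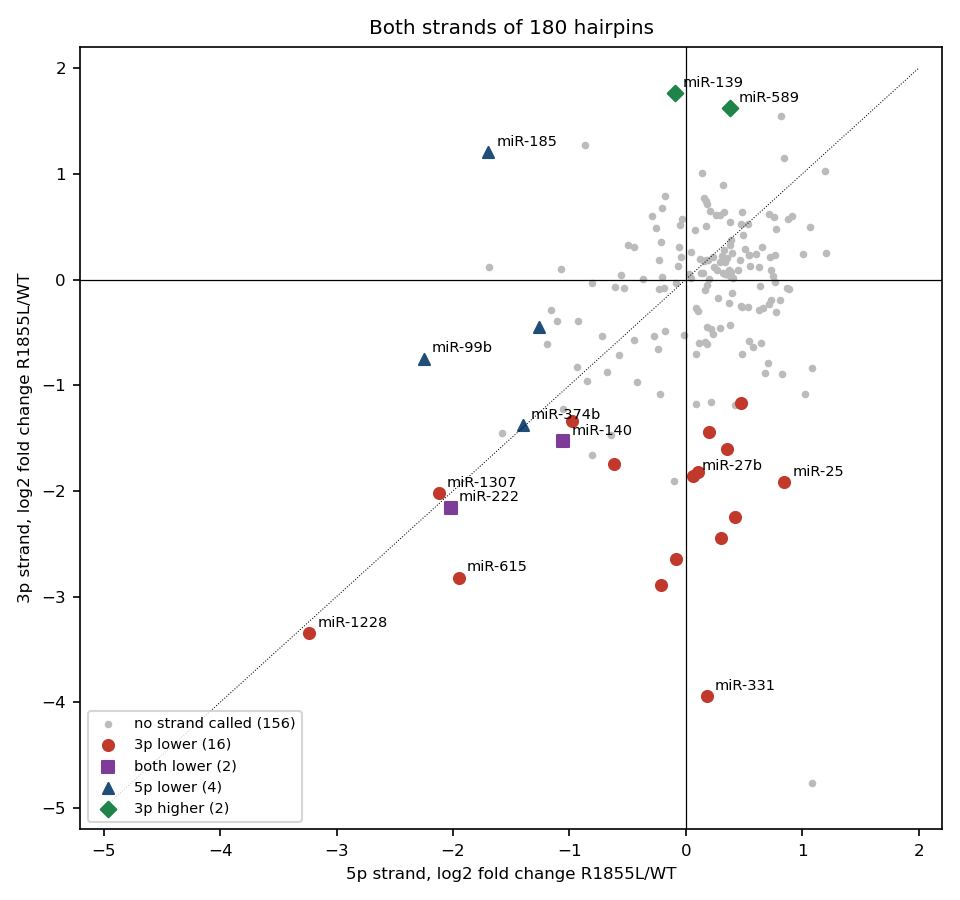
Log2 fold change (R1855L over WT) of the 5p strand on the x axis and of the 3p strand on the y axis for 180 hairpins, coloured by which strand was called; the dotted line marks equal change. The 16 red points lie below 0 on the y axis, 9 of them to the right of 0 on the x axis, and miR-185 is the triangle at upper left.

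miR-331-3p was the largest fall among these 3p strands. It had 906 and 684 CPM in WT and 64.9 and 35 CPM in R1855L, whereas its partner miR-331-5p had 236 and 259.6 CPM in WT against 300.5 and 259 in R1855L (0.18, SE 0.22, edgeR adjusted p = 0.717). The 3p values were far apart and the 5p values overlapped.

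miR-25-3p, of the oncogenic miR-106b, miR-93 and miR-25 cluster, had 5539 and 5386 CPM in WT and 1424 and 1468 CPM in R1855L. Its partner miR-25-5p went the opposite way, with 131 and 152 CPM in WT against 232 and 278 in R1855L, without passing the test (0.85, SE 0.27, edgeR adjusted p = 0.144). Neither strand overlapped between groups, and the hairpin printed above was thus unequal between its arms.

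miR-27b-3p and miR-23b-3p come from adjacent hairpins in an intron of C9orf3 on chromosome 9. miR-27b-3p, a regulator of lipid metabolism and vessel growth, had 7036 and 7259 CPM in WT and 1924 and 2017 in R1855L (-1.86, SE 0.23, edgeR adjusted p = 0.00513). miR-23b-3p had 5144 and 5031 CPM in WT against 2299 and 2215 in R1855L (-1.17, SE 0.22, edgeR adjusted p = 0.0237). Their 5p partners had log2 fold changes of 0.06 (SE 0.25) and 0.48 (SE 0.25) and were not called. Both hairpins thus showed a fall on the more abundant 3p arm with the minor arm not passing. miR-27b-3p and miR-27a-3p differ only near their 3' ends, as do miR-23b-3p and miR-23a-3p, so trimmed reads could be assigned to either, which was not tested.

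miR-203a-3p, a miRNA of epithelial differentiation, had 1166 and 1121 CPM in WT and 359 and 394 CPM in R1855L (-1.60, SE 0.22, edgeR adjusted p = 0.0083). miR-203b-3p had 109 and 114 CPM in WT against 25.6 and 20.2 in R1855L. The hairpins MIR203A (chr14:104117405-104117514, + strand) and MIR203B (chr14:104117418-104117503, - strand) lie on opposite strands of the same stretch between genes, and whether counting used the strand is not given in the sources used here. The 3p strand fell from each of them, and the 5p strands had log2 fold changes of 0.35 (SE 0.58) and 0.42 (SE 0.53).

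Among other 3p falls, miR-3200-3p had 148 and 118 CPM in WT and 20.7 and 22.1 in R1855L, and miR-455-3p, of an intron of the collagen gene COL27A1, had 315 and 373 CPM in WT against 114 and 139.8 in R1855L. miR-574-3p had 100.3 and 119 CPM in WT and 42.8 and 44.2 in R1855L (-1.34, SE 0.28, edgeR adjusted p = 0.0391). No value of these 3 strands overlapped between groups, as in every called name. miR-151a-3p had 6047 and 4640.5 CPM in WT against 1502 and 1685 in R1855L, and miR-151a-5p 5698 and 10536 CPM in WT against 6576 and 4011 in R1855L, with overlap in the 5p strand only. At fewer reads, miR-766-3p had 57 and 180 reads in WT and 10 and 8 in R1855L, and miR-584-3p 33 and 172 reads against 19 and 6.

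In some hairpins the partner strand had a similar log2 fold change that did not pass. miR-1307-3p had 1708 and 1443 CPM in WT and 312 and 466 in R1855L (-2.02, SE 0.30, edgeR adjusted p = 0.00902). miR-1307-5p had 5441 and 2530 CPM in WT against 522 and 1314 in R1855L (-2.12, SE 0.54, edgeR adjusted p = 0.0775). Both strands were below the WT range in R1855L, and the 5p strand differed more between replicates. miR-615-3p, from the HOXC locus, had 302 and 206 CPM in WT and 22.6 and 53.4 in R1855L, and its rare partner miR-615-5p had 17 and 29 reads in WT and 7 and 0 in R1855L.

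Both strands fell from miR-222 and from miR-140. miR-222-3p, which represses the cell-cycle inhibitor p27, had 81883 and 76740 CPM in WT and 17068 and 18483 in R1855L. miR-222-5p had 9149 and 7968 CPM in WT against 1593 and 2628 in R1855L (-2.02, SE 0.31, edgeR adjusted p = 0.00936). miR-140, known from cartilage and placed in an intron of WWP2, had 1392 and 1123 CPM in WT against 427 and 445 in R1855L on its 3p strand and 349 and 358 CPM in WT against 157 and 184 in R1855L on its 5p strand. The log2 fold changes were -1.53 (SE 0.24, edgeR adjusted p = 0.0108) and -1.05 (SE 0.22, edgeR adjusted p = 0.0393). In these hairpins both arms stood below the WT range.

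Only the 5p strand was called lower in miR-185, miR-99b, miR-374b and miR-188, and in all 4 it was the more abundant strand in WT. miR-185-5p had 648 and 669.5 CPM in WT and 204 and 202 in R1855L (-1.70, SE 0.20, edgeR adjusted p = 0.00513). miR-185-3p had 50.9 and 40.1 CPM in WT and 84.6 and 127 in R1855L, and its log2 fold change of 1.21 missed the threshold (SE 0.33, edgeR adjusted p = 0.0929). The strands of miR-185 therefore stood on opposite sides of their WT ranges.

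miR-99b-5p, whose family is linked to mTOR signalling, had 3853 and 2223 CPM in WT and 373 and 907 in R1855L, with a replicate spread wider than that of most called names. miR-374b-5p, from the long non-coding RNA FTX, had 915 and 858 CPM in WT against 311 and 361 in R1855L (-1.40, SE 0.21, edgeR adjusted p = 0.00936). miR-188-5p, of an intron of CLCN5, had 249 and 199 CPM in WT against 92.9 and 93.8 in R1855L (-1.26, SE 0.24, edgeR adjusted p = 0.0274). All 3 kept the WT and R1855L ranges apart, as did every called name. Their 3p partners lay below 0 as well without passing. miR-374b-3p had 11.4 and 33.8 CPM in WT against 8.85 and 9.2 in R1855L, a log2 fold change close to that of its partner (-1.38, SE 0.57, edgeR adjusted p = 0.265). For miR-99b-3p it was -0.75 (SE 0.35, edgeR adjusted p = 0.302) and for miR-188-3p -0.45 (SE 0.62, edgeR adjusted p = 0.751). miR-128-3p, known from brain and made from hairpins on chromosomes 2 and 3, fell from 1411 and 1194 to 456 and 419.5 CPM (-1.57, SE 0.24, edgeR adjusted p = 0.00936), and its partners were not tested as a pair.

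Only 3p strands were called higher, and both are the minor strand of their hairpin. miR-139-3p, of an intron of PDE2A, had 45 and 101 reads in WT and 154 and 71 in R1855L, or 34.2 and 26.3 CPM in WT against 75.7 and 131 in R1855L, while miR-139-5p had 513 and 380.3 CPM in WT against 363 and 473 in R1855L. miR-589-3p had 13 and 41 reads in WT and 66 and 17 in R1855L (1.62, SE 0.33, edgeR adjusted p = 0.0324). The 3p ranges did not overlap, and the 5p ranges of both hairpins did.

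Hairpin totals, which add the names of a hairpin, had about the same share of lower calls as the mature names (5.44%). Both strands were tested in only 180 hairpins. Elsewhere a total largely repeats 1 mature name, so a similar share was in large part built in. Of 464 hairpin totals, 25 were lower (5.39%) and 0 higher (0%) by edgeR, where DESeq2 called 5 higher and 22 were higher with an unadjusted p under 0.05. Every one of the 25 had a called mature name. A further 9 hairpins had a called strand without a called total, namely miR-139, miR-141, miR-151a, miR-203b, miR-455, miR-574, miR-584, miR-589 and miR-1226. The total of miR-25 had a log2 fold change of -1.73 (SE 0.21), close to the -1.92 of its 3p strand, which held most reads. For miR-331 the total changed by -1.66 (SE 0.24) against -3.94 for the 3p strand, and for miR-185 by -1.20 (SE 0.20) against -1.70 for the 5p strand. The count of called totals fell to 4 without WT replicate 1, to 5 without R1855L replicate 1, to 10 and 9 without R1003Q replicates 1 and 2, and to 16 without WT replicate 2 or R821H replicate 2.

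The ratio of 5p to 3p reads within a hairpin does not depend on library scaling. Among 174 pairs, limma called 3 toward 3p (1.72%) and 10 toward 5p (5.75%). The median change over all pairs was 0.23 on the log2 scale, and 110 of the 174 lay above 0. A depth term gave 7 toward 3p (4.02%) and 25 toward 5p (14.4%). The count fell to 4 without WT replicate 1 or without R1003Q replicate 1, to 7 without WT replicate 2, and to 4 in the fit of the 4 libraries.

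miR-331 had log2 ratios of -1.94 and -1.40 in WT and 2.21 and 2.86 in R1855L, so the larger strand passed from 3p to 5p in both libraries. miR-455 did the same, with -1.22 and -1.14 in WT and 0.74 and 0.18 in R1855L (1.64, SE 0.34, limma adjusted p = 0.0196). miR-203b had -2.74 and -1.58 in WT and 0.80 and 0.43 in R1855L (2.77, SE 0.58, limma adjusted p = 0.0196). In all 3 the sign of the ratio differed between every WT and every R1855L library. The larger strand passed from 3p to 5p in 7 of the 174 pairs, which also included miR-6765, miR-556, miR-574 and miR-5699. It passed from 5p to 3p in 1, miR-548e. Of these further hairpins limma called only miR-6765.

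In other called pairs the ratio shifted without a change of the larger strand. miR-25 went from -5.40 and -5.15 in WT to -2.62 and -2.40 in R1855L, and miR-27b from -5.46 and -4.99 to -3.20 and -3.35. miR-23b went from -5.84 and -5.72 to -4.27 and -3.98 (1.65, SE 0.33, limma adjusted p = 0.0196). These 3 kept 3p as the larger strand in every library. miR-185 went from 3.66 and 4.06 to 1.26 and 0.67 and kept 5p as the larger strand.

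The ratio test also called hairpins in which neither strand was called alone. miR-33b, of an intron of the lipid regulator SREBF1, went from 0.90 and 0.13 in WT to 1.91 and 2.47 in R1855L (1.68, SE 0.40, limma adjusted p = 0.0349). miR-361, of an intron of CHM, went from 2.71 and 2.66 to 4.72 and 3.80 (1.57, SE 0.39, limma adjusted p = 0.0374). miR-29a, which represses collagen genes, went from -1.50 and -1.47 to 0.26 and -0.36 (1.44, SE 0.35, limma adjusted p = 0.0374). Each moved toward 5p without overlap between WT and R1855L. Against the mean of R821H and R1003Q, miR-361 also passed (2.09, SE 0.33, limma adjusted p = 0.00646). There miR-33b (1.20, SE 0.34, limma adjusted p = 0.0699) and miR-29a (0.90, SE 0.31, limma adjusted p = 0.117) did not pass. For miR-6765 the 3p reads were few: 15 and 50 in WT, then 1 and 0 in R1855L, a rate ratio of 0.0308 (exact 95% interval 0.000768 to 0.178, counting error only).

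**Figure D3:**
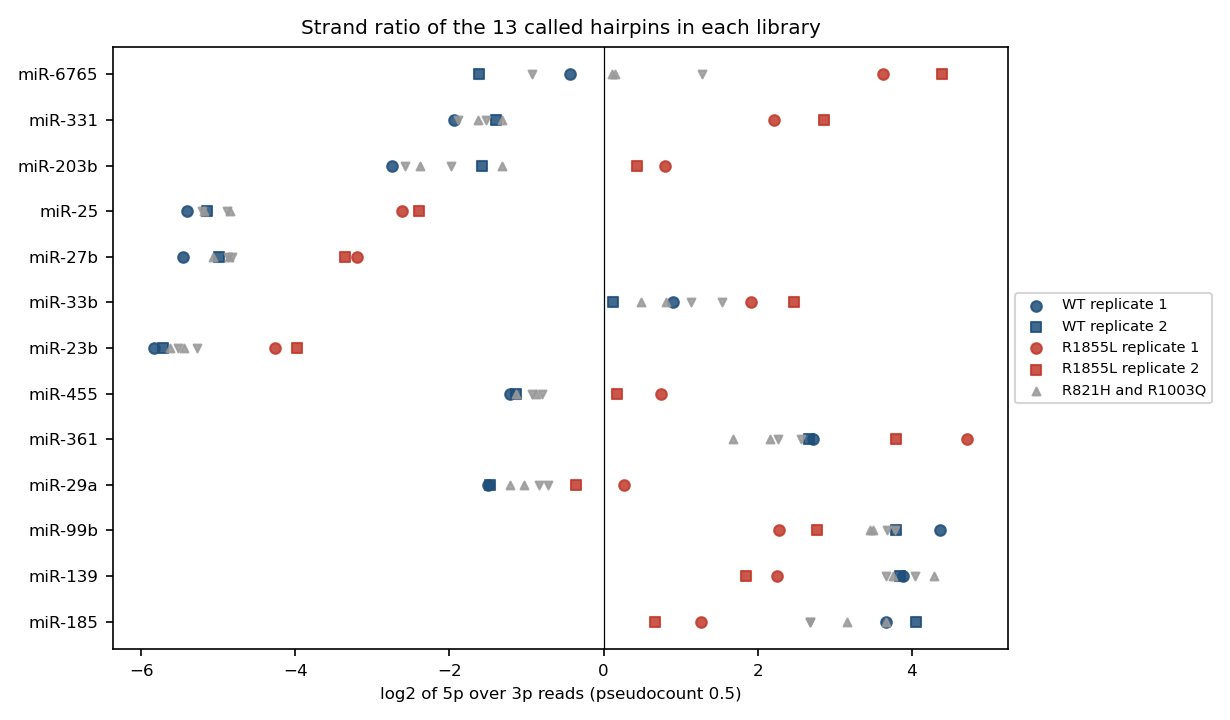
Log2 ratio of 5p to 3p reads (x axis, pseudocount 0.5) in each library for the 13 hairpins called by limma, with WT in blue, R1855L in red and the R821H and R1003Q libraries as grey triangles. Red and blue points are apart in every row, and the line at 0 separates them in miR-331, miR-203b, miR-455 and miR-6765.

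The hairpins were also split by the strand that was larger in WT. In the 66 hairpins with a larger 3p strand the 5p strands had a median log2 fold change of 0.29 and the 3p strands one of -0.23, with 14 3p strands and 2 5p strands called lower. In the 114 with a larger 5p strand they were 0.18 and 0.05, with 4 of each strand called lower. By level in WT, edgeR called 11 lower of 269 names at 10 to 100 CPM (4.09%), 11 of 169 at 100 to 1000 CPM (6.51%), 11 of 79 at 1000 to 10000 CPM (13.9%) and 1 of 12 above that (8.33%), beside 5.44% of all names. Under 10 CPM edgeR and DESeq2 called 0 of 96, and 8 had an unadjusted p under 0.05, where 115 of all 625 names did. With the depth term edgeR called 4 of these 96 lower and 4 higher, beside 16.6% and 11.7% of all names. Strand sequences could be placed in 132 of the 180 hairpins. By the base at the 3' end of the 3p strand, the median ratio change was 0.48 for G (28 ratios), 0.34 for A (27), 0.10 for U (31) and 0.04 for C (41). By the number of bases between the strands it was 0.58 at 17 or 18 bases (27 ratios) and between 0.13 and 0.35 in the other 4 classes. These are descriptions of pairs that share libraries, with no test.

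Hairpins cut from 1 primary transcript, or placed side by side, moved apart in some clusters. Among 42 ratios between neighbours in 26 clusters, limma called 2 lower (4.76%) and 3 higher (7.14%). The ratio of miR-221-3p to miR-222-3p was -1.19 and -1.31 (log2) in WT and 0.64 and 0.71 in R1855L (1.92, SE 0.0548, limma adjusted p = 7.36e-10). miR-221-3p itself had 35935 and 31029 CPM in WT and 26576 and 30269.9 in R1855L, so the pair changed order while miR-221-3p did not pass the test.

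In the cluster of MCM7, the ratio of miR-106b-5p to miR-25-3p was -1.70 and -0.65 in WT and 1.49 and 0.27 in R1855L (2.05, SE 0.55, limma adjusted p = 0.0442). The ratio of miR-93-5p to miR-25-3p differed by 1.66 (SE 0.62, limma adjusted p = 0.141) and was not called. In both ratios the groups were apart, with a wide spread inside each group. In the cluster of SPACA6, miR-125a-5p over miR-99b-5p was -2.52 and -1.08 in WT and 1.80 and 0.39 in R1855L (2.90, SE 0.68, limma adjusted p = 0.0245). The third member did not move apart from miR-99b-5p by this test, with a change of 0.51 for let-7e-5p over miR-99b-5p (SE 1.49, limma adjusted p = 0.867). let-7e-5p itself had a log2 fold change of -1.70 and was not called (SE 0.80, edgeR adjusted p = 0.316).

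The ratio of miR-429 to miR-200b-3p, epithelial miRNAs of chromosome 1 with the same seed, was -0.73 and -1.29 in WT and -2.50 and -1.98 in R1855L (-1.23, SE 0.35, limma adjusted p = 0.049). That of miR-188-5p to miR-532-5p, both in CLCN5, was -1.39 and -2.32 in WT and -4.01 and -3.50 in R1855L (-1.90, SE 0.38, limma adjusted p = 0.0128). In each of these clusters 1 member stood lower against the neighbour named in the called ratio, which does not show that it fell alone. miR-23b and miR-27b both fell. Some of the 5 calls were lost without WT replicate 1, R1855L replicate 1, or any single R821H or R1003Q library. Without WT replicate 2 further ratios were called.

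**Figure D4:**
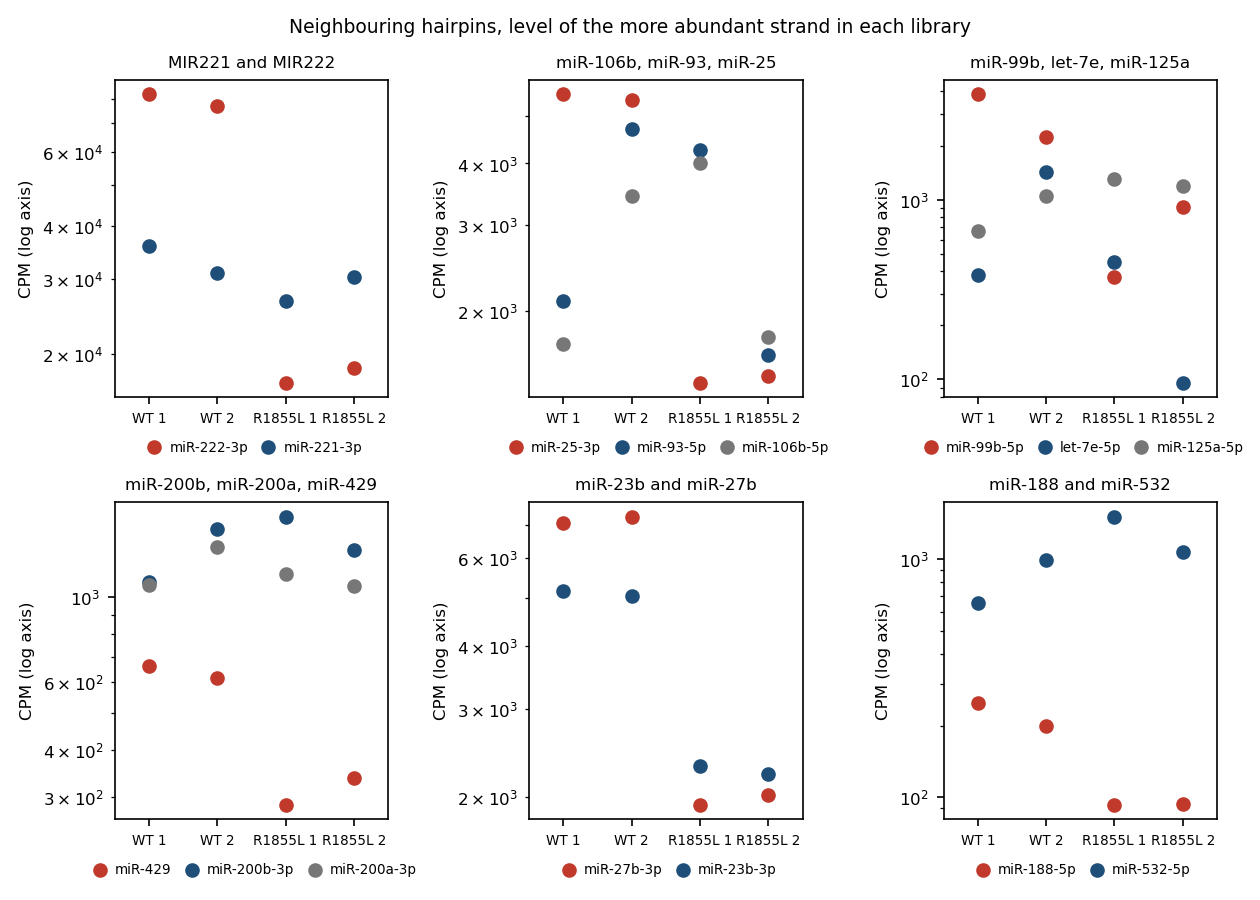
Level of neighbouring miRNAs in the 2 WT and 2 R1855L libraries (x axis), as TMM-normalised CPM on a log axis, 1 panel per cluster. miR-222-3p lies above miR-221-3p in both WT libraries and below it in both R1855L libraries, while miR-23b-3p and miR-27b-3p are both lower in R1855L.

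Summing all names that share bases 2 to 8 asks how much of each targeting specificity was left. Of 475 seed totals, 30 were lower (6.32%) and 2 higher (0.421%) by edgeR. Only 1 of the 52 seeds with at least 2 tested names was called, GCUACAU of miR-221-3p and miR-222-3p, with 134774 and 115171 CPM in WT and 48996 and 50099 in R1855L (-1.33, SE 0.29, edgeR adjusted p = 0.0318). The remaining calls were seeds with 1 tested name. The 32 calls fell to 16 and 18 without WT replicates 1 and 2, and to 19 and 17 without R1003Q replicates 1 and 2.

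The other shared seeds printed above did not pass. AUUGCAC, of miR-25-3p and miR-92a-3p among others, had 19015 and 15765 CPM in WT and 15231 and 19566 in R1855L, an overlap with a fitted difference of 0.00 (SE 0.28). miR-92a-3p had 8866 and 7658 CPM in WT against 10369 and 14886 in R1855L and was not called (0.61, SE 0.28). UCACAGU, of miR-27a-3p and miR-27b-3p, differed by -0.39 (SE 0.30), and UCACAUU, of miR-23a-3p and miR-23b-3p, by -0.54 (SE 0.25). ACCCGUA had 20158 and 16748 CPM in WT and 23563 and 38385 in R1855L (0.75, SE 0.33), with miR-100-5p as its most abundant member. AAUACUG, of miR-200b-3p and miR-429, differed by -0.14 (SE 0.27). In these families the fallen member was a part of a larger pool, and at this spread a small change of the pool would not be detectable. GCAGCAU, of miR-103a-3p and miR-107, had 6131 and 6170.4 CPM in WT and 3171 and 3010.2 in R1855L without overlap (-0.99, SE 0.26, edgeR adjusted p = 0.056).

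Against the mean of R821H and R1003Q, substitutions at other residues, R1855L had 32 lower names (5.12%) and 3 higher (0.48%) of 625 by edgeR. This comparison uses the same R1855L libraries as that with WT, so the values are given side by side. miR-484 differed by -5.27 (SE 0.42), miR-331-3p by -3.93 (SE 0.34), miR-1307-3p by -2.61 (SE 0.28) and miR-222-3p by -2.47 (SE 0.25). The 3 higher names were the minor strands miR-139-3p (1.56, SE 0.29), miR-185-3p (1.25, SE 0.28) and miR-25-5p (1.01, SE 0.23). The last pair had not passed against WT. The count fell to 13 and 19 without R1855L replicates 1 and 2, to 23 and 19 without R821H replicates 1 and 2, and to 12 and 16 without R1003Q replicates 1 and 2.

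Some names called against WT did not pass against the other substitutions. miR-374b-5p differed from the other substitutions by -0.65 (SE 0.19, edgeR adjusted p = 0.11), and miR-589-3p by 0.50 (SE 0.28, edgeR adjusted p = 0.425). miR-185-5p stood at -1.0 (SE 0.19, edgeR adjusted p = 0.346) in R821H and -0.70 (SE 0.19, edgeR adjusted p = 0.857) in R1003Q against WT, neither of which passed, and was lower in R1855L than in their mean (-0.85, SE 0.18, edgeR adjusted p = 0.0368).

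**Figure D5:**
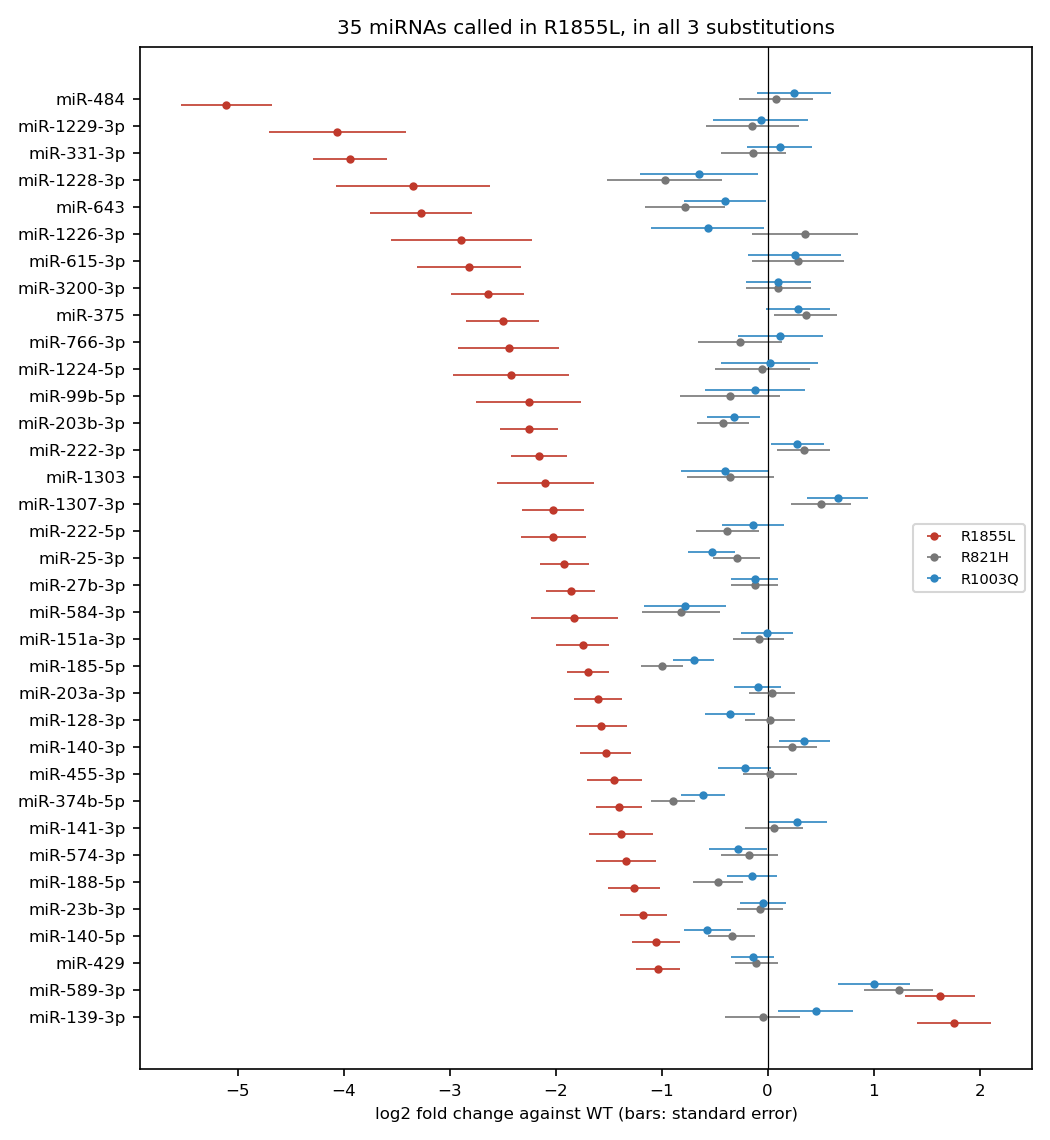
Log2 fold change against WT (x axis, bars are the standard error) of 35 of the 36 miRNAs called in R1855L, for R1855L in red, R821H in grey and R1003Q in blue. All 3 comparisons share the WT libraries; R1855L lies far from both other substitutions in miR-484 and miR-331-3p, and the bars of R1855L and R821H overlap in miR-589-3p.

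Hairpins that reach DICER by unusual routes were described by lists. Mirtrons, released by splicing, had 4 of 12 tested names lower by edgeR, a median of -1.39 and 3 names above 0, beside a lower share of 5.44% and a median of 0.13 over all names. miR-1229-3p had 29 and 69 reads in WT and 3 and 0 in R1855L, a rate ratio of 0.0613 (exact 95% interval 0.0124 to 0.185). For miR-1228-3p the ratio was 0.102 (0.0204 to 0.312). Both intervals cover counting error only. miR-1226-3p had 31 and 55 reads in WT and 4 and 2 in R1855L, and miR-1224-5p 42 and 79 reads against 9 and 3. The called mirtron strands thus rest on few reads. The most abundant, miR-877-5p, had 204 and 210.2 CPM in WT and 103 and 95.7 in R1855L and missed the threshold (-1.06, SE 0.25, edgeR adjusted p = 0.0519).

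Capped hairpins had 1 of 5 tested names lower by edgeR, miR-484, beside 5.44% of all names, with 0 of 5 above 0 and a median of -1.26. DESeq2 called 2 lower, and 2 had an unadjusted p under 0.05, where 115 of all 625 names did. With the depth term edgeR called all 5 lower, beside 16.6% of all names. The most abundant, miR-320a, had 3084 and 5925 CPM in WT and 2287 and 1345 in R1855L (-1.31, SE 0.39, edgeR adjusted p = 0.114). miR-451a, which Argonaute 2 cuts in place of DICER, had 199 and 978 reads in WT and 677 and 80 in R1855L (0.25, SE 0.47), with overlapping CPM. It was present in every library and is also a blood marker.

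Most large families had few calls. By edgeR 0 of 9 let-7, 0 of 7 miR-15 and miR-16, 0 of 5 miR-30 and 0 of 3 miR-29 members passed, where DESeq2 also called 0 in each and 1, 0, 0 and 1 had an unadjusted p under 0.05. When depth entered the model, edgeR called 6 let-7 and 3 miR-29 members lower, 1 miR-30 member higher and 0 of miR-15 and miR-16. That model called 16.6% of all names lower and 11.7% higher. Without the depth term the family medians were -0.60, 0.18, 0.14 and -0.79, in the order first given. Of the miR-23, miR-24 and miR-27 list 2 of 5 fell, of the miR-17-92 family with its paralogs 1 of 10, and of the miR-200 family 2 of 5, beside 5.44% of all names. Of the miR-10, miR-99 and miR-100 list miR-99b-5p fell, and the other 4 of 5 lay above 0 with a list median of 0.81, where edgeR called none higher. DESeq2 called 3 of the list higher and 1 lower, and edgeR with the depth term 4 higher and 1 lower. An unadjusted p under 0.05 was found for 5 of 5, and for 115 of all 625 names. In the miR-200 family, miR-141-3p had 46 and 135 reads in WT and 30 and 6 in R1855L and fell, and its cluster neighbour miR-200c-3p had 24 and 167 reads in WT and 98 and 13 in R1855L.

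By role in colorectal cancer, 1 of 12 growth-promoting names fell (miR-222-3p) and 2 of 9 tested growth-limiting names (miR-203a-3p and miR-375), beside 5.44% of all names. Of 5 tested miRNAs induced by p53, 0 passed in edgeR or DESeq2 and 0 had an unadjusted p under 0.05, while edgeR with the depth term called 2 lower. miR-34a-5p had 3539 and 4769.5 CPM in WT and 3594 and 2053 in R1855L (-0.56, SE 0.33).

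Of the 10 most abundant miRNAs in WT, only miR-222-3p was called. miR-21-5p, the most abundant, had 248856 and 420618 CPM in WT and 497861 and 248462 in R1855L, where each group held 1 high and 1 low library and the deep library was the high one. miR-31-5p had 45871 and 45941 CPM in WT against 45915 and 35326 in R1855L, and miR-27a-3p 19623 and 14766 CPM in WT against 12909 and 21920 in R1855L, with overlapping ranges in both. miR-100-5p had 13758 and 13435 CPM in WT and 20592 and 36401 in R1855L (1.07, SE 0.33, edgeR adjusted p = 0.136), and miR-10a-5p 12590.1 and 12828 CPM in WT against 18709.7 and 25893 in R1855L (0.81, SE 0.25, edgeR adjusted p = 0.136). These last 2 stood above the WT range in both R1855L libraries without passing.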

How the data were processed

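Small RNA of 8 HCT116 libraries was profiled by AQ-seq from TRIzol total RNA, per the labels' protocols. Of the processing, the submitters' processing notes list hg38 and mm10 as builds and BWA, bedtools and cutadapt as tools, with no version, order or role. The authors deposited, per library, estimated counts per mature miRNA name, not normalised. Absent names were set to 0, and fractions, held by 19 to 33 names per library, were rounded for tests.

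Names kept by filterByExpr (625 of 1818) were scaled by TMM and fitted with edgeR 4.0.16 (R 4.3.3, quasi-likelihood, robust) over all 8 libraries, with group as the only term. Hairpin and seed totals were fitted likewise. Log2 ratios of strands and of neighbours (pseudocount 0.5, at least 80 reads per side over 8 libraries) were fitted with limma 3.58.1 (trend, robust). Calls needed a Benjamini-Hochberg adjusted p under 0.05 over the whole table, and the standard error (SE) in edgeR is the size of the log2 fold change over the root of F. Scripts were tested on simulated data.

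Sequences and hairpin positions are from RefSeq (GRCh38.p14, 542 of 625 tested names matched), and overlapping host genes from GENCODE release 29 (GRCh38). Named miRNAs are those called, their partners, the most abundant and listed members, with per-library values. Members and lists were chosen with earlier results of these data known. Alternatives were DESeq2 1.42.0, other scalings and filters, a depth term, replicate blocks and leaving out each library. The same-number deviations of WT and R1855L correlated at -0.66 over miRNAs, so the numbers were not taken to pair samples. No molecular identifiers are described, so floors and intervals cover counting error only. For 1 called name the values are not reported here.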

Additional observations from a re-analysis of the deposited data

Results flagged for a closer look

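R1855L differed from the mean of R821H and R1003Q in 35 of 625 miRNAs by edgeR, which compares 1 substitution with the others directly. This is the test of the difference itself, given above with its values, and its cause was not tested. No group had enough libraries for a check on single outlying samples.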

How the results depend on the processing

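Values are counts of called items, against 36 mature names, 25 hairpin totals, 13 strand ratios, 5 neighbour ratios, 32 seed totals and 35 names in the comparison with the other substitutions. Scaling by total counts gave 14 names, 10 hairpins, 7 seeds and 15 names against the other substitutions. A fit of only the 4 libraries gave 2 names, 1 hairpin, 4 strand ratios, 2 neighbour ratios and 21 seeds. The depth term gave 177, 130, 32, 20, 136 and 132 in the order above. DESeq2 called 39 hairpins (34 lower, 5 higher), a 50 CPM filter left 20 seeds, and limma without a variance trend left 2 neighbour ratios. Leaving out 1 library gave 15 to 27 names, 4 to 17 hairpins, 4 to 14 strand ratios, 2 to 8 neighbour ratios, 16 to 30 seeds and 12 to 29 names against the other substitutions; these fits lower the group size that the edgeR filter uses and test more names, and a lone library is assumed to vary like the others. With the replicate block the counts were 19, 10, 9, 3, 15 and 18. Crossed pairing, chosen after seeing the data, gave 57, 44, 26, 7, 61 and 60. Median-ratio size factors, no filter, a pseudocount of 5 and a 400-read minimum kept every count within 1.5 times, and no called item changed sign under the settings run. A sign could hardly change where WT and R1855L were apart, as in all called mature names. With 2 libraries per group and 462805 reads in the shallowest, small changes and names of few reads are not resolved; the cause of the differences between settings was not tested.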
